A study of Caenorhabditis elegans with 22 samples.

Results

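The isp-1(qm150) mutation was compared with wild type in whole young adult hermaphrodites of Caenorhabditis elegans, on 3 arrays of isp-1(qm150) and 4 arrays of wild type without paraquat, which are 7 of the 22 Affymetrix arrays of the series. The arrays were chosen by their titles alone. All carried the Bristol N2 background, and the worms were synchronised by a 4-hour egg lay, collected by hand at the young adult stage and washed for total RNA. The labelling chemistry primes at the 3' end of transcripts, so each probe set reads that end. Further comparisons use 3 arrays each of nuo-6(qm200), isp-1(qm150) ced-4(n1162) and ced-4(n1162) worms of the same stage. Nothing in the labels tells whether arrays named as biological replicates had cultures of their own. The p-values thus measure the spread between arrays within groups, pooled over all 22 arrays, which may be technical. Values are log2 expression as deposited, differences are isp-1 minus wild type on that scale, and a difference of 1 is 2-fold. A call means that limma gave an adjusted p (Benjamini-Hochberg) under 0.05.

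isp-1 encodes the Rieske iron-sulfur protein of complex III, the enzyme that passes electrons from ubiquinol to cytochrome c in the mitochondrial inner membrane. Some worm mutants with a defect in complex III or complex I develop slowly and live long. Loss of respiratory function is known to engage nuclear programs for antioxidant enzymes, mitochondrial chaperones and altered carbon use. qm150 is a missense allele, so the transcript itself need not be lost.

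isp-1 replicate 1 did not lie with isp-1 replicates 2 and 3. Over 12639 tested probe sets, isp-1 replicate 1 had correlations of 0.993, 0.979 and 0.988 to the nuo-6 arrays (replicates 1, 2 and 3). Its correlations to its own group were lower, 0.976 for replicate 2 and 0.967 for replicate 3, while those 2 arrays correlated with each other at 0.989. Among 586 genes called between isp-1 replicates 2 and 3 and the nuo-6 arrays, a call that did not use isp-1 replicate 1, that array lay nearer to the nuo-6 mean for 541 (92.3%). On a scale with the mean of isp-1 replicates 2 and 3 at 0 and the nuo-6 mean at 1, its median position over these genes was 0.947, with quartiles of 0.743 and 1.127. The cause was not tested, and results that turn on this array are given with and without it. Wild type replicate 1 also stood apart, at -57.3 on the second principal component of these 7 arrays (22.1% of the variance), against -5.38, 38.3 and 0.521 for wild type replicates 2, 3 and 4. The median SD of a probe set was 0.242 over the isp-1 arrays, 0.144 over isp-1 replicates 2 and 3 and 0.298 over the wild type arrays.

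**Figure D1:**
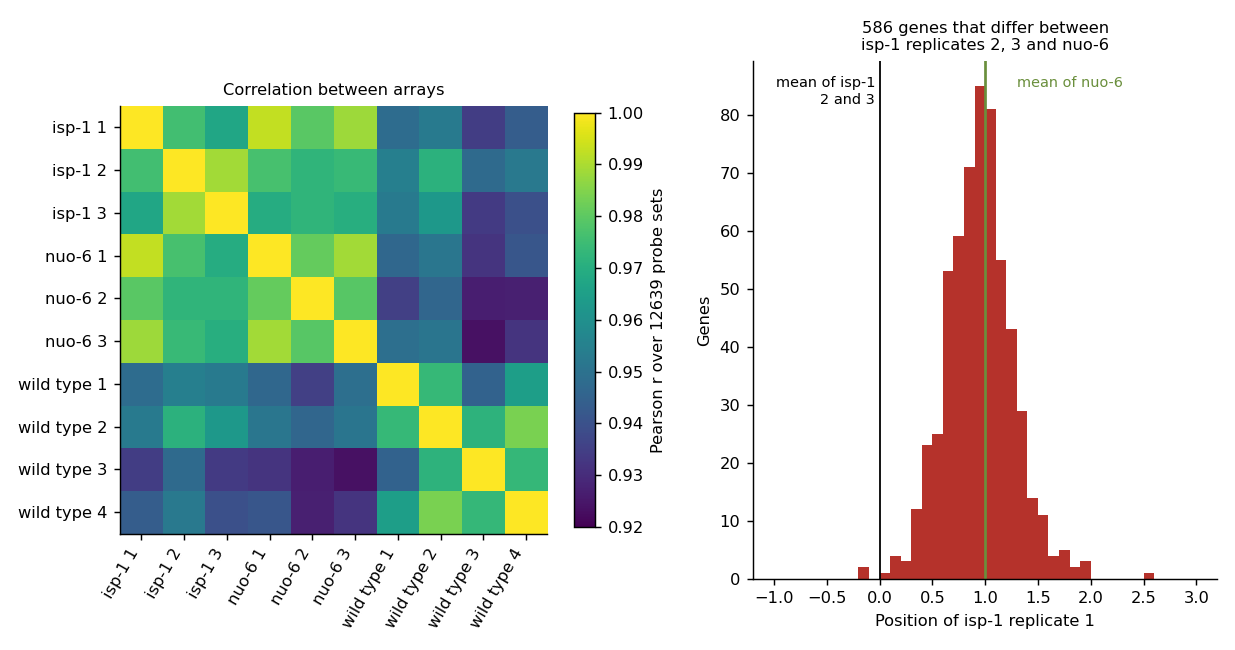
Left, Pearson correlation between arrays of isp-1, nuo-6 and wild type over 12639 probe sets. Right, number of genes by the position of isp-1 replicate 1 between the mean of isp-1 replicates 2 and 3 (0) and the nuo-6 mean (1), for 586 genes called without isp-1 replicate 1. For 541 of them isp-1 replicate 1 lay nearer to the nuo-6 mean.

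The mutated gene gave no check of the labels. isp-1 was at 12.98, 13.09 and 13.23 on the isp-1 arrays, against 13.00, 13.01, 13.08 and 13.14 on the wild type arrays (difference 0.04, adjusted p = 0.769). The probe set may bind more than 1 transcript. nuo-6 and ced-4, mutated in other groups of the series, differed by 0.16 (adjusted p = 0.282) and -0.05 (adjusted p = 0.854). As a check of the stage and tissue, the yolk protein gene vit-2 was at 13.44, 13.59 and 13.88 in isp-1 and at 13.67, 13.50, 13.48 and 13.35 in wild type, so adult intestinal expression was high in both groups.

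Of 12639 probe sets, 1558 were higher in isp-1 (12.3%) and 1217 were lower (9.63%), 22% in all. By gene, 1254 of 9652 were higher (13%) and 992 were lower (10.3%), 23.3% in all. Falls were the larger changes, with a median size of 1.13 over called genes that fell and 0.79 over those that rose, and 568 genes fell at least 2-fold while 393 rose at least 2-fold. At the far end the order turned, since 21 genes rose and 13 fell at least 8-fold. Of the genes called higher, 146 lay under the filter floor of 3.68 on every wild type array, and of those called lower 184 lay under it on every isp-1 array, so that the sizes of these changes are uncertain. The isp-1 arrays lay entirely above the wild type arrays for 1002 of the genes called higher and entirely below for 764 of those called lower, against 1291 (13.4%) and 1157 (12%) of all 9652 genes whether called or not. Without isp-1 replicate 1, 1182 genes were higher (12.2%) and 889 were lower (9.21%), of which 963 and 795 were called with it too. A fit of the 7 isp-1 and wild type arrays alone, below the 7-array fit, called 716 probe sets in place of 2775, with 338 higher and 378 lower. After cyclic loess between arrays the split was 1222 higher and 1609 lower, so which direction was more common depends on the scaling.

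**Figure D2:**
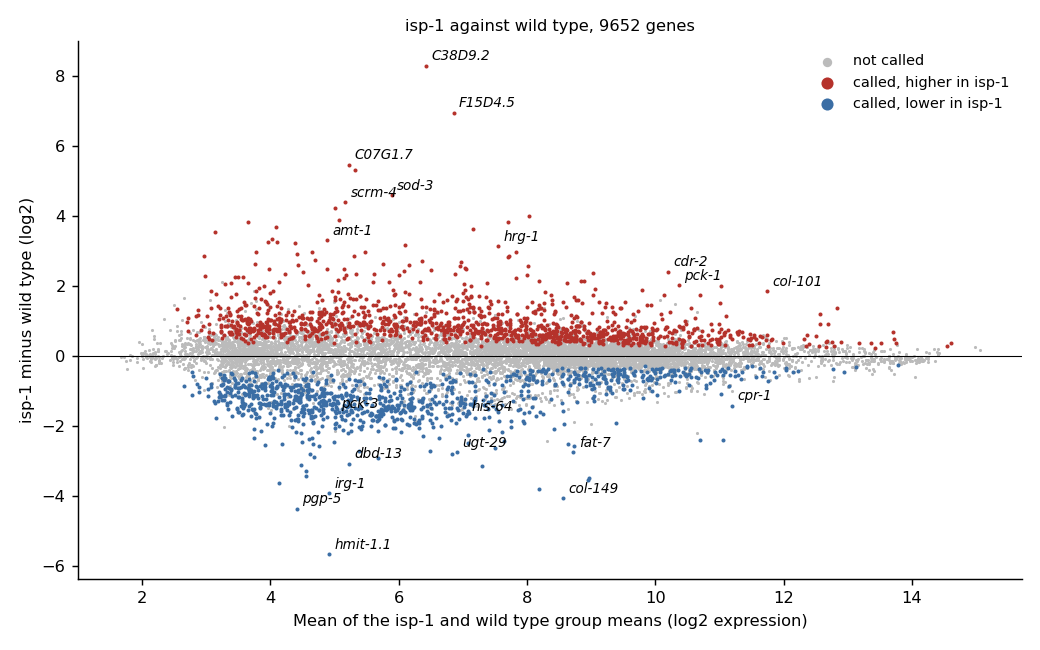
Each point is 1 of 9652 genes, by its mean level (log2 expression) and its difference, isp-1 minus wild type (log2). Red points are the 1254 genes called higher and blue points the 992 called lower in isp-1. C38D9.2 and hmit-1.1 lie at the ends, at 8.29 and -5.67.

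The largest rise was that of C38D9.2, a gene known by its sequence name, which was at 10.01, 10.65 and 11.06 on the isp-1 arrays, against 2.27, 2.20, 2.24 and 2.41 on the wild type arrays. Its values in wild type were near the bottom of the scale, and the groups lay far apart. C07G1.7 was at 10.09, 6.76 and 7.01 in isp-1, against 2.84, 2.58, 2.35 and 2.18 in wild type, so it rose by 5.47 (SE 0.52, adjusted p = 2.85e-06), or by 4.40 without isp-1 replicate 1, the high array. F40D4.13 rose by 5.32 and F15D4.5 by 6.95. Among genes with a gene name, sod-3, the inducible mitochondrial manganese superoxide dismutase, was at 8.12, 8.30 and 8.14 in isp-1, against 3.98, 3.40, 3.54 and 3.48 in wild type. scrm-4, of the phospholipid scramblases, was at 8.54, 6.77 and 6.77 in isp-1 and at 2.93, 2.74, 2.98 and 3.24 in wild type. The isp-1 arrays agreed closely for sod-3, while replicate 1 stood above the others for scrm-4. The groups did not overlap in either gene, but the largest rises and falls given here and below were chosen among calls without overlap.

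Further large rises included those of transporter and receptor genes. amt-1, of the ammonium transporter family, was at 6.61, 6.76 and 6.26 in isp-1, against 2.84, 3.55, 1.79 and 4.73 in wild type, so it rose by 3.31 (SE 0.50, adjusted p = 0.000212). pdfr-1, the receptor of the PDF neuropeptides, was at 6.69, 6.19 and 5.52 in isp-1, against 3.08, 2.96, 3.29 and 3.32 in wild type, so it rose by 2.97 (SE 0.36, adjusted p = 2.74e-05). The heme transporter gene hrg-1 was at 8.81, 9.35 and 9.19 in isp-1, against 6.81, 6.59, 4.35 and 6.20 in wild type. All wild type arrays lay below all isp-1 arrays in these 3 genes, with wild type spread over 2 units or more for amt-1 and hrg-1 and within 1 for pdfr-1. The C-type lectin gene clec-17 rose by 3.25 (adjusted p = 0.000329), again with isp-1 replicate 1 the highest, at 6.86 beside 5.15 and 5.16. nspg-7.2 went the other way within isp-1, at 3.83, 6.18 and 6.73, against 2.23, 2.14, 2.63 and 2.33 in wild type, and its rise of 3.25 was 4.12 without isp-1 replicate 1. txdc-12.2, a thioredoxin domain gene, was at 7.94, 7.53 and 7.56 in isp-1, against 6.94, 3.21, 3.84 and 4.06 in wild type, where replicate 1 was the high array and lay under all isp-1 arrays.

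The remaining rises of the 15 largest with a gene name were those of sysm-1, an immune reporter gene of the PMK-1 p38 pathway (4.01), rips-1 (3.84), cyp-14A1 (3.68) and cyp-33C8 (3.62), both cytochromes P450, the glutathione S-transferase gst-14 (3.54), the caenacin cnc-3 (3.36) and hrg-9 (2.98). For rips-1 the values were 10.04, 9.44 and 9.40 in isp-1, against 5.47, 7.01, 4.36 and 6.29 in wild type, and for sysm-1 they were 10.25, 9.83 and 10.05, against 4.63, 7.18, 4.28 and 8.04. In sysm-1 the wild type arrays ranged over nearly 4 units, the isp-1 arrays over less than 1. Among the largest and the most abundant changes given here and below, txdc-12.2, clec-47, irg-5, lys-2, hrg-7, cpr-1, lys-4 and ttr-17 were not called in the 7-array fit.

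Among the falls, hmit-1.1, which carries myo-inositol into cells, was at 1.74, 2.79 and 1.71 on the isp-1 arrays, against 7.20, 8.07, 7.30 and 8.42 on the wild type arrays. pgp-5, of the P-glycoprotein transporters, was at 2.55, 2.24 and 1.90 in isp-1 and at 7.48, 5.70, 6.53 and 6.66 in wild type. Both genes lay under the filter floor on all isp-1 arrays. dbd-13 was at 4.10, 3.60 and 3.36 in isp-1, against 7.80, 5.61, 6.63 and 7.01 in wild type, a fall of 3.08 (adjusted p = 0.000348). ugt-29, a UDP-glucuronosyltransferase, was at 5.53, 5.69 and 5.38 in isp-1, against 8.66, 7.88, 8.19 and 8.40 in wild type, a change of -2.75 (SE 0.24, adjusted p = 1.01e-06). The arrays of each group lay within 1 unit for ugt-29, the tightest of these genes. fat-7, a stearoyl-CoA desaturase, was at 7.64, 7.37 and 7.02 in isp-1, against 10.43, 10.66, 8.34 and 10.94 in wild type, a change of -2.75 (SE 0.51, adjusted p = 0.0012). Wild type replicate 3 was the low array for fat-7, and it still lay above all 3 isp-1 arrays.

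Of the other falls among the 15 largest with a gene name, the cuticle collagen gene col-149 fell by 4.06, irg-1 and irg-4, both infection response genes, by 3.92 and 3.13, and the UDP-glucuronosyltransferase ugt-31 by 2.51. ugt-26 was at 7.65, 5.79 and 5.44 in isp-1, against 10.43, 9.98, 9.43 and 10.52 in wild type, so that its change of -3.80 became -4.48 without isp-1 replicate 1. The C-type lectin gene clec-47 was at 9.80, 5.90 and 5.97 in isp-1, against 11.86, 9.98, 10.12 and 10.84 in wild type, and isp-1 replicate 1 lay just under the lowest wild type array. irg-5, another infection response gene, was at 3.10, 2.53 and 2.31 in isp-1, against 8.83, 4.35, 3.24 and 4.37 in wild type, where replicate 1 was the high array (adjusted p = 0.0274). gpdh-1, which makes glycerol in the osmotic response, fell by 3.12, grl-21, of the hedgehog-related ground-like genes, by 2.72 and msrp-1 by 2.53. Of genes with a sequence name alone, Y69A2AR.25 changed by -3.61, F42A10.7 by -3.54, C49G7.12 by -3.44 and C34H4.1 by -3.27.

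**Figure D3:**
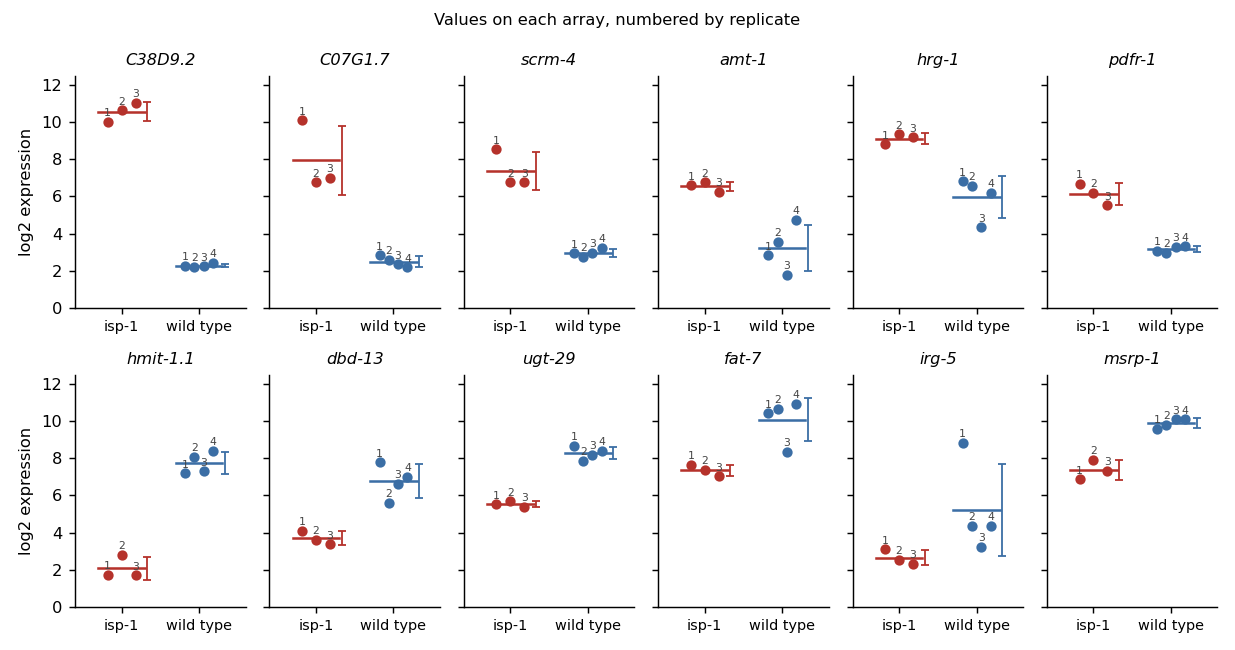
log2 expression of 12 genes on each isp-1 array (red, left) and each wild type array (blue, right), numbered by replicate, with the mean as a line and the SD as a bar. The groups do not overlap in any panel, which was a condition for choosing these genes. isp-1 replicate 1 is the high array for C07G1.7 and scrm-4, and wild type replicate 1 is the high array for irg-5.

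Abundant transcripts changed less in log2 terms but from high levels. The cuticle collagen genes col-143 and col-101 rose by 1.37 (adjusted p = 6.38e-05) and 1.84 (adjusted p = 3.6e-06). col-143 was at 13.51, 13.46 and 13.56 in isp-1, against 12.35, 12.26, 11.45 and 12.51 in wild type, with little spread among the isp-1 arrays. hrg-7, a secreted aspartic protease-like protein that signals heme status between tissues, was at 12.09, 12.08 and 11.93 in isp-1, against 10.88, 10.45, 8.30 and 10.45 in wild type. aldo-1, a fructose-bisphosphate aldolase, rose by 1.74, ugt-62 by 1.51 and the lysozyme gene lys-2 by 1.14, which was 0.80 without isp-1 replicate 1. On the other side cpr-1, a gut cysteine protease of the cathepsin B type, was at 11.12, 10.93 and 9.39 in isp-1, against 11.16, 11.65, 13.31 and 11.46 in wild type, and the nearest arrays of the groups almost met. lys-4 was at 11.22, 9.25 and 8.02 in isp-1, against 11.88, 11.38, 12.68 and 11.66 in wild type, with isp-1 replicate 1 close to the wild type arrays. hach-1, which acts in valine breakdown, fell by 1.08, gda-1 by 1.12, ttr-17, of the transthyretin-related family, by 1.01 and the collagen gene col-39 by 2.39, the last not past the threshold without isp-1 replicate 1 (adjusted p = 0.0517).

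Markers of tissues and of the germ line were read before the gene groups, since the RNA came from whole worms, where fewer cells of a type and less RNA per cell cannot be told apart. Over all genes 13% were higher and 10.3% lower, which the counts below are to be read against. Most list members named below were chosen for a small p. Of all called genes, 79.9% of those higher and 77% of those lower had no overlap between the groups. A lack of overlap in a named member therefore adds no support of its own. Of 71 sperm genes, 15 were lower (21.1%) and 1 was higher, the median difference was -0.56, and 5 of the 71 differences were above 0, against a median of 0.05 over all genes. Their mean level was 9.88, 9.72 and 9.47 on the isp-1 arrays, against 10.00, 10.21, 10.57 and 10.51 on the wild type arrays. spe-27, which acts in sperm activation, fell by 2.09 (adjusted p = 3.1e-05), and spe-57, spe-54 and pei-1 fell by 1.16, 1.56 and 1.92, while spe-44, a regulator of spermatogenesis genes, rose by 0.98. Most sperm genes therefore lay lower without passing the test, and 47 of the 71 were read by probe sets that may bind several transcripts. Of 41 oocyte and early embryo genes 7 rose (17.1%) and none fell (median 0.24), among them mei-1, of the meiotic spindle, and lin-41, and the count was 11 without isp-1 replicate 1 and 15 without wild type replicate 2. Of 36 intestine markers 5 fell (13.9%, and 2 without isp-1 replicate 3) and 1 rose (median -0.11), with lys-4 and elt-7, a gut GATA factor, among the falls. elt-7 was at 5.88, 4.60 and 4.75 in isp-1, against 5.87, 6.11, 7.12 and 6.09 in wild type, so replicate 1 lay within the wild type range. Of 35 muscle genes 3 fell (8.57%), tnt-3, mup-2 and ttn-1, by 0.77, 0.44 and 0.44. Of 14 neuron markers 1 rose, unc-119 by 0.73, which was not called after loess, and of 15 hypodermis markers 1 rose and 1 fell. Of 13 pharynx markers 4 rose and 1 fell, and the mean level of the list was 6.64, 7.24 and 6.75 on the isp-1 arrays, against 5.09, 6.71, 7.12 and 7.22 on the wild type arrays, with wild type replicate 1 low. In the 7-array fit 10 sperm genes were lower, and no gene of the other lists of this paragraph was called. The part of these differences in the gene groups below was not tested.

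Of 32 complex I genes 5 rose and 1 fell, shares of 15.6% and 3.12% against 13% and 10.3% over all genes. In all, 28 of the 32 differences were above 0, with a median of 0.16. nduv-2 rose by 0.36, nduf-9 by 0.31, ndub-2 by 0.34 and ndus-8 by 0.32, and the 1 that fell was nduf-2.2, by 0.36. sdhb-1, the iron-sulfur subunit of complex II, rose by 0.35. In complex III and cytochrome c, which hold isp-1, ucr-2.1 rose by 0.59 and the cytochrome c gene cyc-2.1 by 0.23, the others of the 9 tested not passing. All 12 tested genes of complex IV and its assembly lay above 0, and 3 rose. These were cox-15, which makes heme a, by 0.80, cox-18 by 0.68 and cox-6A by 0.25. mai-1, related to the ATP synthase inhibitor, asg-2 and atp-1 rose by 0.97, 0.36 and 0.29 among 12 ATP synthase genes. None of these respiratory chain calls held in the 7-array fit, and without isp-1 replicate 1 the rises were 2 in complex I, 1 in complex IV and 1 in ATP synthase. Without isp-1 replicate 2 there were 2 in complex I and 1 in ATP synthase.

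All 7 tested genes of ubiquinone synthesis, which makes the electron carrier between the complexes, lay above 0, with a median of 0.78, and 5 rose (71.4%, against 13% over all genes). clk-1, the hydroxylase of the last part of the pathway, was at 8.71, 7.85 and 8.11 in isp-1, against 6.24, 7.36, 7.32 and 7.12 in wild type (difference 1.21, SE 0.26, adjusted p = 0.00346). coq-2, the polyprenyl transferase, was at 8.15, 7.41 and 7.57 in isp-1, against 6.79, 6.91, 6.75 and 6.67 in wild type (difference 0.93, SE 0.16, adjusted p = 0.000684). coq-8, an atypical kinase of the pathway, was at 11.30, 10.88 and 10.81, against 10.40, 10.29, 9.89 and 10.29. In all 3 the groups did not overlap and isp-1 replicate 1 was the highest array. coq-1 and coq-4 rose by 1.11 and 0.60, and coq-3 and coq-6 were at differences of 0.24 and 0.27 without passing. The same 5 genes were called without isp-1 replicate 1, with clk-1 at 0.97 (adjusted p = 0.022) and coq-1 at 0.77 (adjusted p = 0.00909), while in the 7-array fit 1 was.

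Mitochondrial upkeep genes were mixed. In the mitochondrial unfolded protein response, the program that raises chaperones and proteases when mitochondria are stressed, 5 of 13 tested genes rose and 1 fell (median 0.35). Its regulator atfs-1 rose by 1.18 and the inner membrane proteases ymel-1 and spg-7 by 1.03 and 1.01, with clpp-1 and timm-23 at 0.30 and 0.38, while dve-1, a homeobox partner of the response, fell by 0.67. The chaperone genes hsp-6 and hsp-60 are usually read as its reporters. hsp-6 was at 11.23, 11.26 and 11.46 in isp-1, against 11.17, 11.10, 10.47 and 10.79 in wild type (difference 0.43, adjusted p = 0.0532). The groups did not overlap, and hsp-6 passed after loess (adjusted p = 0.0375) and without wild type replicate 1 (adjusted p = 0.0198). hsp-60 differed by 0.05 (adjusted p = 0.889). Both hsp-6 and hsp-60 had 2 tested probe sets, of which the brighter is given here. Over the alternatives, among them the mean of a gene's probe sets, hsp-6 differed by 0.295 to 0.751 and hsp-60 by -0.183 to 0.352. None of the list was called in the 7-array fit. Without isp-1 replicate 1, 2 of the 13 rose, and spg-7 was not among them (0.65, adjusted p = 0.124). timm-17B.2, of the inner membrane import channel, was at 8.75, 8.03 and 8.22 in isp-1, against 6.52, 6.82, 6.81 and 6.86 in wild type (difference 1.58, SE 0.18, adjusted p = 1.78e-05), and 3 of 15 import genes rose, with 1 after loess, 1 without isp-1 replicate 1 or 2 or wild type replicate 4, and 7 without wild type replicate 1. A pair of factors of mitochondrial fission with related names moved apart. fis-2 was at 8.15, 7.88 and 8.02 in isp-1, against 6.65, 7.09, 6.62 and 6.84 in wild type, and fis-1 was at 5.36, 5.39 and 4.34, against 6.07, 6.28, 7.60 and 7.11. mff-2, which recruits the fission dynamin, rose by 0.77 (SE 0.10, adjusted p = 3.27e-05). Of 56 mitochondrial ribosomal proteins 3 rose and 1 fell.

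**Figure D4:**
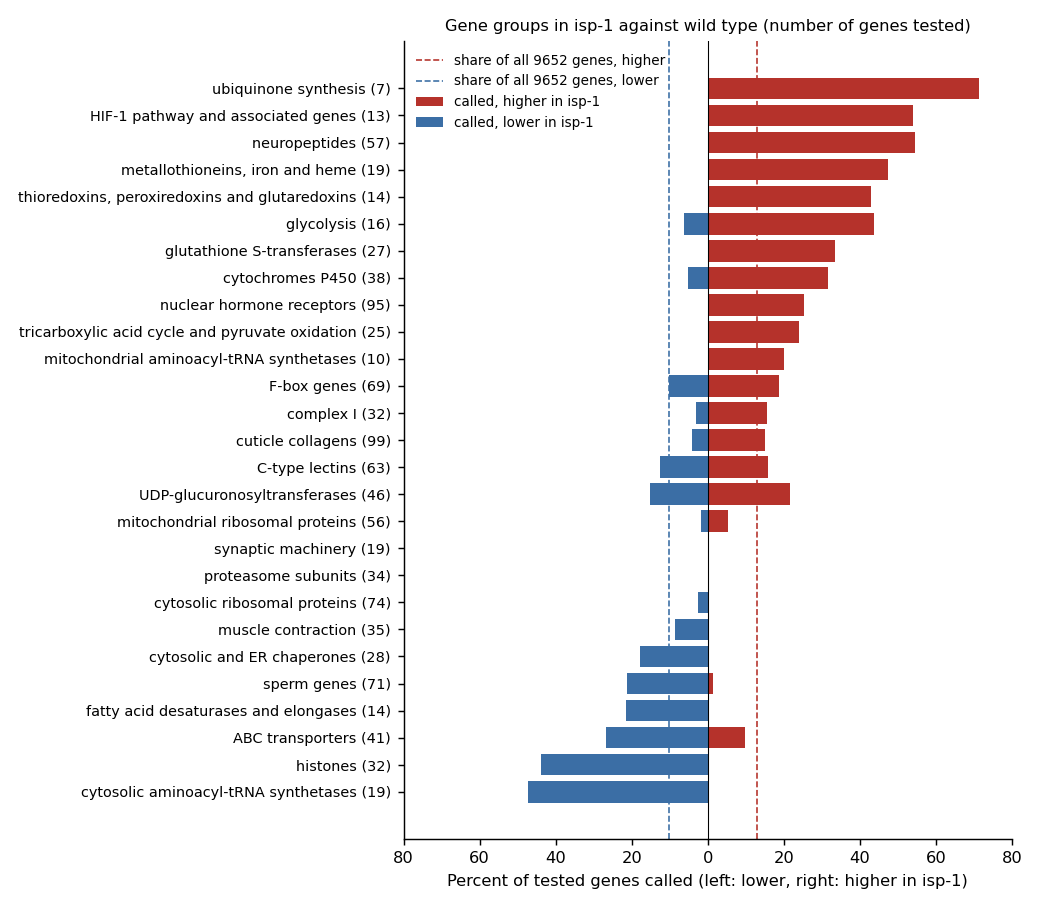
Percent of the tested genes of selected groups called higher (red, right) or lower (blue, left) in isp-1, with the number tested in brackets and the shares over all 9652 genes as dashed lines (13% and 10.3%). Of the groups drawn, ubiquinone synthesis (71.4%), neuropeptides (54.4%) and HIF-1 associated genes (53.8%) reach furthest to the right, and cytosolic aminoacyl-tRNA synthetases (47.4%) and histones (43.8%) furthest to the left. In the 7-array fit the genes called in these directions numbered 1, 2 and 2 on the right and 0 and 8 on the left. DM domain factors and white-type transporters, of 3 and 7 tested genes, are not drawn.

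Antioxidant enzymes were read in 3 groups. Of 5 tested superoxide dismutases and catalases sod-3 alone was called, and sod-1, sod-2, sod-4 and ctl-2 differed by 0.10, 0.24, 0.33 and -0.35. Of 14 thioredoxin, peroxiredoxin and glutaredoxin genes 6 rose (42.9%, against 13% over all genes) and none fell. The mitochondrial set of these enzymes was among them. trxr-2, the mitochondrial thioredoxin reductase, was at 7.73, 7.15 and 7.51 in isp-1, against 6.27, 5.97, 5.50 and 5.97 in wild type, trx-2, its thioredoxin, was at 10.93, 11.05 and 10.99, against 10.51, 10.39, 10.46 and 10.32, and prdx-3, the mitochondrial peroxiredoxin, was at 11.34, 11.13 and 11.13, against 10.73, 10.71, 10.62 and 10.76. The groups did not overlap in any of the 3. In the 7-array fit 2 of the 14 rose, with trxr-2 called. There trx-2 (adjusted p = 0.0507) and prdx-3 (adjusted p = 0.0776) did not pass. trxr-1, the cytosolic reductase, rose by 1.04, glrx-5 by 0.52 and msra-1 by 0.92, the last 2 not past the threshold without isp-1 replicate 1. Of 27 glutathione S-transferases 9 rose and none fell (median 0.55). Without isp-1 replicate 1 the count was 11, and in the 7-array fit it was 3. gst-24 rose by 1.74, gst-12 by 1.35 and gst-13 by 0.77.

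HIF-1 is the transcription factor of the hypoxia response, and it also drives genes of sulfide detoxification. Of 13 tested genes of its pathway and associated genes, 7 rose and none fell (median 0.84). Without isp-1 replicate 1 there were 4 that rose, and in the 7-array fit 2. nhr-57, a nuclear receptor used as a reporter of HIF-1, was at 6.68, 5.99 and 6.53 in isp-1, against 4.34, 3.87, 3.95 and 3.47 in wild type. sqrd-1, which oxidises sulfide and passes the electrons to ubiquinone, was at 6.54, 6.15 and 5.69, against 3.40, 4.10, 3.42 and 3.68. Both genes had no overlap between the groups, as did 79.9% of all genes called higher. The groups overlapped for cysl-2, a cysteine synthase family gene, at 7.77, 9.92 and 10.07 in isp-1 and 7.04, 8.19, 6.63 and 6.57 in wild type. cysl-1 rose by 0.67 and the pathway's negative regulators vhl-1 and rhy-1 by 0.52 and 1.11, these 2 not without isp-1 replicate 1. rhy-1 was at 6.47, 5.60 and 5.97 in isp-1, against 6.34, 4.52, 4.30 and 4.45 in wild type, so wild type replicate 1 was level with the isp-1 arrays. mpst-4, a mercaptopyruvate sulfurtransferase family gene, fell by 2.02.

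Of 19 tested heme and metal genes, of transport, storage and detoxification, 9 rose and none fell (median 0.74), and without isp-1 replicate 1 there were 7 higher and 1 lower. The 7-array fit called 5 higher and none lower. Besides hrg-1 and hrg-7, hrg-9, of the heme-responsive genes, was at 8.04, 6.63 and 6.21 in isp-1, against 3.82, 3.90, 3.83 and 4.38 in wild type. The cadmium-responsive genes cdr-2 and cdr-4 are glutathione S-transferase-like. cdr-2 was at 11.75, 11.53 and 10.91 in isp-1, against 8.05, 9.15, 9.60 and 9.13 in wild type (difference 2.41, SE 0.29, adjusted p = 2.37e-05), and cdr-4 rose by 1.74. No isp-1 array of these 3 genes reached down to a wild type array. Further rises were those of smf-1, a divalent metal importer (1.08), fpn-1.2, a ferroportin (1.14), and ftn-1, which encodes ferritin (2.35). ftn-1 was at 7.32, 6.27 and 6.79 in isp-1, against 2.89, 4.16, 6.33 and 4.41 in wild type, and was not past the threshold without isp-1 replicate 1 (adjusted p = 0.0672).

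Of 38 cytochromes P450 12 rose and 2 fell, with cyp-34A8 at 9.72, 9.38 and 9.62 in isp-1, against 8.04, 7.60, 7.38 and 8.49 in wild type, and cyp-33C9 higher by 1.67. cyp-14A5 fell by 1.79 while its relative cyp-14A1 was among the largest rises. Of 46 UDP-glucuronosyltransferases, which attach sugar to lipophilic compounds, 10 rose and 7 fell (21.7% and 15.2%). ugt-21 was at 8.52, 8.13 and 8.24 in isp-1, against 5.76, 6.66, 4.82 and 5.98 in wild type, and thus moved as far up as ugt-31 moved down. ABC transporters leaned to falls, with 11 of 41 lower (26.8%) and 4 higher (9.76%). Of 7 tested white-type transporters 4 fell and none rose. wht-4 was at 4.16, 3.61 and 3.59 in isp-1, against 4.81, 5.05, 5.51 and 6.25 in wild type, and wht-8, wht-5 and wht-6 fell by 1.78, 1.59 and 1.43. For all 4 the isp-1 arrays lay below the wild type arrays, with wild type replicates 3 and 4 the highest. haf-3, a half-molecule transporter, rose by 0.85. In the 7-array fit 4 cytochromes P450 rose and 1 fell, and 5 UDP-glucuronosyltransferases rose and 3 fell. There 1 ABC transporter rose and 3 fell. Of the white-type transporters 1 fell in that fit, and wht-8, wht-5 and wht-6 were not called.

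Of 16 glycolytic genes 7 rose (43.8%, against 13% over all genes) and 1 fell (median 0.29). In the 7-array fit 3 rose and none fell. ldh-1, lactate dehydrogenase, was at 11.82, 11.07 and 10.83 in isp-1, against 9.64, 10.11, 9.56 and 10.15 in wild type (difference 1.38, SE 0.20, adjusted p = 0.000156), and the aldolase aldo-1 was at 11.77, 11.47 and 11.45, against 9.03, 9.92, 10.06 and 10.27. ipgm-1, a phosphoglycerate mutase, rose by 0.72 and gpd-3, a glyceraldehyde-3-phosphate dehydrogenase, by 0.58, while pfk-1.2, a phosphofructokinase, fell by 1.04 (adjusted p = 0.046), a call lost in 7 of 15 alternatives. The groups did not overlap for any of the 4 that rose. A pair of phosphoenolpyruvate carboxykinases went in opposite directions. pck-1 was at 11.28, 11.43 and 11.44 in isp-1, against 9.38, 9.15, 9.46 and 9.44 in wild type, so it rose by 2.02 (SE 0.14, adjusted p = 2.34e-08), and pck-3 was at 4.36, 4.37 and 3.89, against 5.08, 5.39, 6.50 and 6.40, a change of -1.63. In the tricarboxylic acid cycle and pyruvate oxidation 6 of 25 rose and none fell, with mdh-2 higher by 0.45, aco-2, the mitochondrial aconitase, by 0.57, idh-2 by 0.45 and pdp-1 by 0.41. None of the 6 held in the 7-array fit.

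Of 14 fatty acid desaturases and elongases 3 fell (21.4%, against 10.3% over all genes) and none rose. In the 7-array fit 1 fell. Besides fat-7, fat-3, the delta-6 desaturase, fell by 0.84 and elo-4 by 1.06. fat-6, the partner desaturase of fat-7, was at 11.86, 11.73 and 11.77 in isp-1, against 11.93, 11.87, 12.02 and 12.14 in wild type (difference -0.20, adjusted p = 0.142). fat-5, a palmitoyl-CoA desaturase, was at 6.20, 3.60 and 4.00 in isp-1, against 4.50, 5.02, 6.83 and 5.80 in wild type, and the groups overlapped through isp-1 replicate 1. Of 40 fatty acid oxidation genes 4 rose and 3 fell (10% and 7.5%), shares near those of all genes. acdh-5 and acdh-2, acyl-CoA dehydrogenases, fell by 1.64 and 2.10, and pccb-1, of propionyl-CoA carboxylase, rose by 0.65.

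Of 95 tested nuclear hormone receptors, the ligand-regulated factors that form a large family in worms, 24 rose (25.3%) and none fell, and without isp-1 replicate 1 the counts were 21 and 2. nhr-90 was at 7.07, 7.44 and 6.97 in isp-1, against 5.36, 5.83, 5.69 and 5.25 in wild type, and nhr-193 and nhr-230 rose by 2.33 and 1.99. The groups were separate in all 3, and the 7-array fit called 10 of the 95. dmd-9 and dmd-6, DM domain factors of the family that controls sex-specific traits, rose by 2.40 (SE 0.27) and 2.02 (SE 0.25), and dmd-7 differed by 0.49 without passing. Of 69 F-box genes, substrate adaptors of ubiquitin ligases, 13 rose and 7 fell, and after loess 11 rose and 10 fell. Without isp-1 replicate 1, 14 F-box genes rose and 3 fell. fbxa-107 was at 7.38, 7.58 and 7.74 in isp-1, against 5.75, 6.18, 5.96 and 5.91 in wild type.

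Neuropeptide genes, which encode secreted peptide signals of neurons, rose often. Of 57 tested, 31 rose (54.4%) and none fell, the median was 0.73, and 51 differences were above 0. nlp-16 was at 6.06, 6.32 and 5.91 in isp-1, against 3.76, 4.65, 4.92 and 4.58 in wild type, and nlp-55 was at 5.87, 5.89 and 5.91, against 4.81, 5.09, 5.27 and 4.85. flp-2 was at 6.62, 7.52 and 7.51 in isp-1, against 5.24, 5.79, 6.60 and 5.85 in wild type, and nlp-99 rose by 1.34. In all 4 genes the groups did not overlap, and wild type replicate 1 was the lowest wild type array. Both PDF ligands rose along with their receptor pdfr-1, pdf-2 by 1.06 (adjusted p = 0.00329) and pdf-1 by 0.62 (adjusted p = 0.0172), pdf-1 not after loess (named after its value was seen). The mean level of the list was 6.41, 6.74 and 6.71 on the isp-1 arrays, against 5.36, 5.94, 6.34 and 6.07 on the wild type arrays. Of 19 synaptic genes none was called, with a median of 0.20, and neuron markers were given above. The count was 32 without isp-1 replicate 1, 19 without isp-1 replicate 2 and 18 without isp-1 replicate 3. It was between 28 and 37 without any one wild type array, 22 after loess and 2 in the 7-array fit. Of 14 insulin-like peptide genes 3 rose, ins-30 by 1.28, ins-6 by 0.99 and ins-5 by 0.68, the last not without isp-1 replicate 1. Without isp-1 replicate 3, 1 of the 3 calls was left, and none was in the 7-array fit.

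Of 19 cytosolic aminoacyl-tRNA synthetases, the enzymes that charge tRNAs, 9 fell (47.4%) and none rose, with a median of -0.34, and of 10 mitochondrial ones none fell and 2 rose, with a median of 0.32. sars-1 was at 11.28, 11.35 and 11.51 in isp-1, against 12.16, 11.89, 11.77 and 12.03 in wild type, gars-1 was at 8.54, 8.57 and 8.59, against 9.66, 9.22, 8.92 and 9.28, and yars-1 and qars-1 fell by 1.01 and 0.66. The mitochondrial fars-2 and dars-2 rose by 0.43 and 0.42, both not past the threshold after loess or without isp-1 replicate 1. None of these calls held in the 7-array fit, and the difference between compartments was not tested as such. The compartments were taken from gene names alone. Of 74 cytosolic ribosomal proteins 2 fell, and 2 of the 74 differences were above 0, with a median of -0.11 that was -0.05 after loess. Of 34 proteasome genes none was called. Of 28 cytosolic and endoplasmic reticulum chaperones and their regulators 5 fell (17.9%, against 10.3% over all genes) and none rose, among them hsp-4, the BiP homolog, by 0.51, the calreticulin gene crt-1 by 0.44, pdi-2 by 0.53 and the chaperonin gene cct-2 by 0.42. The 5 became 0 in the 7-array fit, 2 with the replicate number as a block, 2 without isp-1 replicate 3 or wild type replicate 1 or 2, 3 without isp-1 replicate 1 or wild type replicate 4, and 10 without wild type replicate 3, and pdi-2 and cct-2 lost the call in 8 and 9 of 16 alternatives. Of 32 histone genes 14 fell (43.8%) and none rose (median -0.34). his-64 was at 5.63, 6.63 and 6.30 in isp-1, against 7.77, 8.10, 7.59 and 8.18 in wild type, and his-68, his-61 and his-31 fell by 1.10, 1.22 and 1.22. Histone genes are near-identical copies and 20 of the 32 were read by probe sets that may bind several transcripts, so these are not independent measurements, nor is it settled which copies changed.

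Of 63 C-type lectin genes 10 rose and 8 fell, shares of 15.9% and 12.7% near the 13% and 10.3% over all genes, with clec-1 higher by 0.81 and clec-175 lower by 0.84. Without wild type replicate 1 there were 6 higher and 11 lower, and without isp-1 replicate 2 or 3 there were 4 higher. Of 21 infection response genes 3 rose and 3 fell (14.3% each), and of 13 lysozyme genes 2 rose and 2 fell (15.4% each), again shares near those over all genes. The lysozyme genes lys-2 and lys-1 rose, by 1.14 and 0.61, and lys-4 and lys-5 fell, by 2.40 and 1.03. Of 99 cuticle collagens 15 rose (15.2%, and 9 genes without isp-1 replicate 3) and 4 fell (4.04%). col-98 was at 13.16, 13.25 and 13.00 in isp-1, against 12.21, 12.09, 12.28 and 12.34 in wild type, with no overlap. Of 29 body shape collagen and cuticulin genes cutl-10 alone was called, higher by 1.55, and of 32 molting genes 2 rose and 1 fell. tyms-1, thymidylate synthase, rose by 2.08 (SE 0.23, adjusted p = 1.38e-05) among 54 replication and mitosis genes of which 3 rose and 1 fell.

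Calls that turned on isp-1 replicate 1 were examined gene by gene. The 8 largest calls lost without it were those of nspe-1, tbb-6, idpp-15, col-39, ftn-1, cyp-13A5, osg-1 and folt-1. tbb-6, a beta-tubulin, was at 8.20, 4.74 and 4.24 in isp-1, against 3.49, 2.86, 3.31 and 2.89 in wild type, so its rise of 2.59 was 1.35 (adjusted p = 0.0652) without replicate 1. osg-1 was at 6.93, 3.43 and 3.50, against 2.27, 1.98, 2.62 and 2.58, and folt-1, a folate transporter, at 8.42, 6.36 and 5.93, against 6.02, 4.61, 3.80 and 4.74. In these 3 genes replicate 1 was the high isp-1 array. The nuo-6 means were 7.66 for tbb-6, 6.99 for osg-1 and 8.38 for folt-1, close to that array. For nspe-1 the isp-1 arrays agreed, at 8.31, 8.51 and 8.14, and wild type replicate 1 was at 8.53, against 4.41, 4.19 and 5.39 on the other wild type arrays. The 8 largest calls gained were those of nhr-114, clec-67, skr-15, lys-6, alg-3, acox-1.5, his-70 and rpt-6. nhr-114, a nuclear receptor of gut and germ line, was at 8.10, 4.76 and 5.51 in isp-1, against 8.32, 7.01, 6.63 and 7.95 in wild type, a change of -1.36 with replicate 1 and of -2.34 (adjusted p = 0.00815) without it. rpt-6, of the proteasome base, was at 6.47, 8.58 and 8.26, against 6.15, 7.25, 6.66 and 7.04.

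The widest gaps between isp-1 replicate 1 and the other isp-1 arrays, among genes with a gene name, were mostly in genes not called against wild type, clec-47 being the exception. clc-24, of the claudin-like family, was at 6.91, 2.30 and 2.39 in isp-1, against 2.59, 2.16, 2.16 and 2.15 in wild type, and its mean in nuo-6 was 6.38 ± 0.35 (SD, n = 3). cth-1, a cystathionine gamma-lyase, was at 5.35, 9.48 and 9.25 in isp-1, against 10.60, 10.73, 7.79 and 10.71 in wild type, with 5.77 ± 0.22 in nuo-6. asm-3, an acid sphingomyelinase, was at 2.67, 6.79 and 5.83, against 6.43, 6.10, 6.72 and 6.88, with 2.52 ± 0.57 in nuo-6. In each of these replicate 1 lay near nuo-6 and replicates 2 and 3 nearer to wild type. ins-35, clec-52, clec-47 and kreg-1 completed the upper 5, and pud-4, pud-3 and asp-14 the lower 5.

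Against nuo-6, the isp-1 group differed by 1 probe set (0.00791%) of 12639, that of maph-1.2, while 1390 had an unadjusted p under 0.05. Without isp-1 replicate 1 there were 753 (5.96%), of which 382 were higher and 371 were lower in isp-1. Without isp-1 replicate 2 or 3 there were none. By gene 299 were higher (3.1%) and 287 lower (2.97%) in isp-1 replicates 2 and 3. asp-14, an aspartyl protease, was at 11.38 and 11.46 in isp-1 replicates 2 and 3, against 7.42 ± 0.74 in nuo-6 (SD, n = 3), with 7.67 in isp-1 replicate 1. asm-3, cth-1, dod-24, exh-1, nspg-7.2, sdz-24 and argk-1 followed in this direction. far-3, a fatty acid and retinol binding protein, was at 2.34 and 2.89 in isp-1 replicates 2 and 3, against 6.79 ± 0.96 in nuo-6, with 6.18 in isp-1 replicate 1. saeg-2 was at 4.69 and 5.40, against 8.76 ± 0.16 in nuo-6, with 8.69 in replicate 1. clec-47, clc-24, catp-3, osg-1, fat-5 and fmo-2, the flavin monooxygenase, were likewise lower in isp-1 replicates 2 and 3. In the 3 genes given with values, isp-1 replicate 1 lay close to the nuo-6 mean. Of the 586 genes 169 were also called in isp-1 against wild type with all arrays and 194 without replicate 1.

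The isp-1 mutation was also present in a ced-4 background, where CED-4, the adaptor that activates the cell death caspase, is mutated in both groups. isp-1 ced-4 against ced-4 shares no array with isp-1 against wild type. There 2847 genes were higher (29.5%) and 2183 were lower (22.6%). Of the 1254 genes higher in isp-1 against wild type, 806 were higher there too, 64.3% of the first list and 28.3% of the second, and 57 (4.55%) were lower. Of the 992 lower genes 730 were lower in both, 73.6% and 33.4% of the lists, and 32 (3.23%) were higher. Without isp-1 replicate 1 the shares of the first list were 65.3% and 78%. Among genes with a gene name, ordered by the smaller of the changes, the rises in both were led by sysm-1 (4.86 in the ced-4 background), cyp-33C8 (4.54), amt-1 (3.35), sod-3 (3.28), clec-17 (4.34) and cyp-14A1 (3.17). The falls in both, by the same order among genes with a gene name, were led by hmit-1.1 (-4.45 in the ced-4 background), dbd-13 (-7.10), col-149 (-2.94), fat-7 (-4.43), grl-21 (-5.64) and msrp-1 (-5.54). Genes with a sequence name alone stood among them in that order, with F15D4.5 (5.65), C38D9.2 (5.61), C07G1.7 (6.19) and F40D4.13 (4.25) ahead of sysm-1 and F42A10.7 (-5.88) between hmit-1.1 and dbd-13. Of the 12 with a gene name amt-1 differed least between backgrounds, by -0.04, and dbd-13 most, by 4.02. The mean of dbd-13 was 10.12 in ced-4 against 6.76 in wild type, and 3.02 in isp-1 ced-4 against 3.69 in isp-1. Its fall with ced-4 mutated was thus deeper from a higher start.

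The difference of the isp-1 effect between the wild type and ced-4 backgrounds was called for 1774 genes (18.4%), 1025 above 0 (10.6%) and 749 below (7.76%). Among genes with a gene name, the largest above 0 were those of dpy-5, col-48, col-49, col-104 and col-97, cuticle genes that fell by 7 to 8 units with isp-1 in the ced-4 background and were not called in isp-1 against wild type. Their levels also varied within groups. dpy-5 was at 6.03, 5.60 and 9.89 in isp-1, against 7.34, 4.35, 4.59 and 8.81 in wild type, so isp-1 replicate 3 and wild type replicates 1 and 4 were high together. The largest below 0 was that of C49G7.12, at -5.15, followed by clec-174, clec-190, clec-223, clec-67 and cht-1. pgp-5 fell by 0.87 and irg-1 differed by -0.55 in the ced-4 background, against the falls of 4.36 and 3.92 in the wild type background. The differences between backgrounds were -3.49 and -3.37 (adjusted p = 1.77e-05 and 0.00143 in limma). Both genes were already low in ced-4, with means of 3.70 and 4.09, against 6.59 and 6.88 in wild type. These ced-4 means lay near the filter floor, and how far the low start limited a further fall was not tested. Over all genes 29.5% were higher and 22.6% lower in isp-1 ced-4 against ced-4, with a median of 0.14, which the list counts there are to be read against. Neuropeptides had 2 higher and 16 lower of 57 in isp-1 ced-4 against ced-4 and a median of -0.31. Ubiquinone synthesis had 5 of 7 higher in that background too, heme and metal genes 9 higher and 1 lower of 19, and glycolysis 10 higher and 1 lower of 16. Histones had 3 higher and 17 lower of 32 and sperm genes 1 higher and 65 lower of 71. Among the isp-1 ced-4 arrays replicate 1 stood apart. It correlated with isp-1 replicate 1 at 0.961 while isp-1 ced-4 replicates 2 and 3 did so at 0.919 and 0.914. Without it 2956 probe sets had a called difference between backgrounds in place of 2362, and without isp-1 ced-4 replicate 2 there were 1371.

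**Figure D5:**
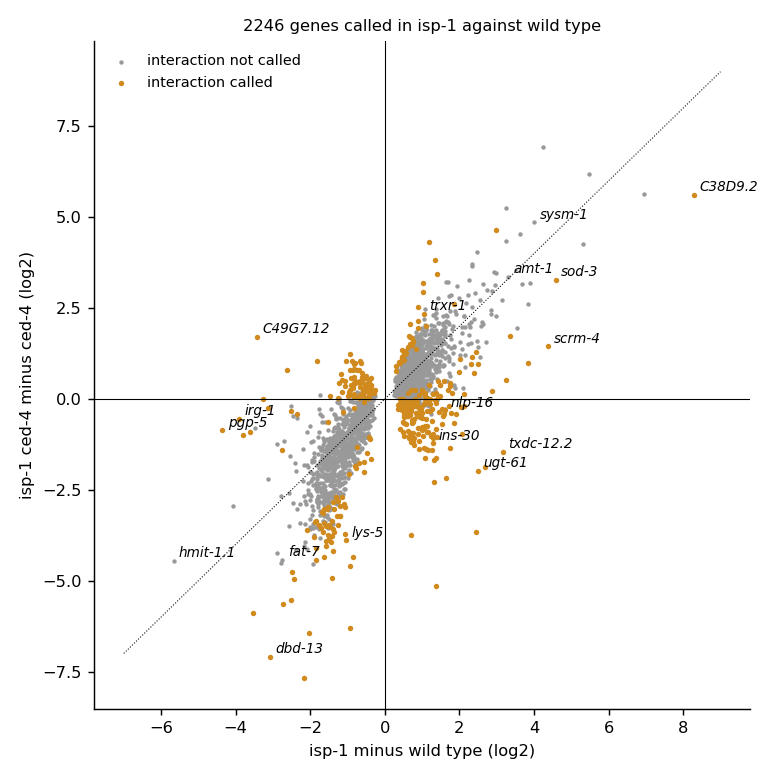
Differences of the 2246 genes called in isp-1 against wild type (horizontal, log2) beside the differences of isp-1 ced-4 against ced-4 (vertical, log2), with equal values on the dotted line. Orange points are genes whose difference between backgrounds was called. C38D9.2, sod-3 and sysm-1 rose in both and hmit-1.1, dbd-13 and fat-7 fell in both, while ugt-61, txdc-12.2 and C49G7.12 changed sign.

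By chromosome the calls were uneven. On the X chromosome 194 of 1217 tested genes were higher (15.9%) and 70 were lower (5.75%), with a median of 0.14, and without isp-1 replicate 1 the shares were 16.4% and 5.09%. Chromosome V had 15.4% higher and 9.81% lower, and chromosome IV had 10.9% higher and 12.8% lower. Chromosomes I, II and III lay between 11.2% and 12.9% higher and between 9.92% and 11.9% lower. Genes of a chromosome share expression programs and are not independent, so no test was made. Calls also depended on level, since of 1989 genes whose higher group mean lay between 4 and 6, 15.5% were higher and 18.1% lower, and of 354 genes above 12, 8.76% were higher and 3.39% lower.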

How the data were processed

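The values are log2 expression per probe set of an Affymetrix C. elegans array, which the authors had background-corrected and normalized with GCRMA per the submitters' processing notes. The log base was read from the range of the deposited values, 0.926 to 15.3. Arrays have no read depth, and their number limits the precision. After leaving out 77 control probe sets, the 12639 of 22548 with a value of at least 3.68 (the median of the table) on 3 or more arrays were tested. limma 3.58.1 in R 4.3.3 was fitted to all 22 arrays in 7 groups, so that all groups shared the estimate of the spread, with two-sided tests and Benjamini-Hochberg adjustment over all tested probe sets. Every adjusted p in the text comes from limma. Where several tested probe sets named a gene, the brightest one on average stood for it, giving 9652 genes, of which 3602 (37.3%) had a probe set that may bind several transcripts. Probe sets were named through the platform annotation and current RefSeq symbols, and 20701 of 20766 with 1 symbol matched. Gene lists and named genes were chosen with earlier results of these data known. Named genes were the largest non-overlapping calls, the most abundant genes that changed at least 2-fold, the members of each list with the smallest p and the genes most changed by leaving out isp-1 replicate 1, by nuo-6 or by the ced-4 background, and a few further members were named after their values were seen. On simulated data with 200 changed probe sets of 12639, the fit of isp-1 against wild type recovered 8% of changes of 0.5, 66% of 1, 98% of 2 and 98% of 3, with 7 false calls. The simulated arrays were independent, with the same SD in every group and no array set apart. The false calls therefore do not measure the error in these data, where spreads differ between groups. Alternatives were another scaling, median centring, other filters, a gene mean over probe sets, trend and robust moderation, only the groups compared, a replicate block and leaving out arrays. No sequences are given.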

Additional observations from a re-analysis of the deposited data

Results flagged for a closer look

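The effect of isp-1 differed between the wild type and ced-4 backgrounds, by the interaction term in limma at an adjusted p under 0.05, for 63 of 238 named genes. Some of the named genes were chosen for a large change between backgrounds, so their share is not set against that of all genes. Values are the isp-1 minus wild type difference minus the isp-1 ced-4 minus ced-4 difference, in log2. The largest above 0 were dpy-5 at 8.73, col-48 at 8.26, col-49 at 7.84, col-104 at 7.77, col-97 at 7.75, txdc-12.2 at 4.61, nspe-1 at 4.56, ugt-61 at 4.48, dbd-13 at 4.02 and msrp-1 at 3.02. Next came scrm-4 at 2.94, grl-21 at 2.92, lys-5 at 2.86, rips-1 at 2.86, his-70 at 2.80, nspg-7.2 at 2.73, C38D9.2 at 2.68, ins-30 at 2.50, grd-5 at 2.47 and F42A10.7 at 2.33. Then followed nlp-16 at 1.93, spp-23 at 1.86, nlp-55 at 1.84, ins-6 at 1.83, ptc-3 at 1.71, cnc-3 at 1.63, nhr-57 at 1.54, spe-27 at 1.52, cyp-34A8 at 1.45 and gst-24 at 1.38. Smaller values were nlp-99 at 1.38, spe-44 at 1.37, sod-3 at 1.31, nhr-230 at 1.26, fpn-1.2 at 1.23, nhr-193 at 1.17, pdf-2 at 1.14, spp-4 at 1.11, hsp-60 at 1.00 and pck-1 at 0.92. The smallest above 0 were col-98 at 0.79, mup-2 at 0.61 and clec-1 at 0.57. Below 0 were C49G7.12 at -5.15, clec-174 at -4.18, clec-190 at -4.14, clec-223 at -4.07, clec-67 at -3.81, cht-1 at -3.80, pgp-5 at -3.49, irg-1 at -3.37 and C34H4.1 at -3.27. Nearer to 0 were irg-4 at -2.90, ugt-26 at -2.82, Y69A2AR.25 at -2.71, argk-1 at -2.24, ugt-31 at -2.20, ugt-29 at -1.35, trxr-1 at -1.30, hsp-4 at -0.91 and gda-1 at -0.78. Least below 0 were col-101 at -0.77 and gars-1 at -0.72. Of the genes below 0, some were already low in ced-4. The ced-4 means were 3.70 for pgp-5, 4.09 for irg-1, 2.86 for C49G7.12, 2.95 for Y69A2AR.25 and 3.65 for C34H4.1. Others were not, with irg-4 at 7.48 and ugt-26 at 8.35 in ced-4. How far a low start limited a fall was not tested.

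In 21 of 310 sets of 4 wild type values, the highest or lowest array stood far from the other arrays by Dixon's test, where chance gives about 1 in 20. The values of these arrays were 2.77 for clec-17, 4.38 for hrg-9, 8.30 for hrg-7, 6.67 for spe-44, 9.46 for ttn-1, 10.5 for ndus-8, 7.56 for cox-15, 6.01 for atfs-1, 6.75 for dve-1, 6.53 for timm-17B.2, 3.60 for vhl-1, 6.34 for rhy-1, 3.73 for nhr-193, 3.18 for nhr-230, 3.98 for ins-30, 13.3 for crt-1, 2.60 for clc-24, 7.79 for cth-1 and 6.17 for argk-1. The mean levels of 2 lists were marked in the same way, cytosolic and ER chaperones at 9.76 and C-type lectins at 6.74.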

How the results depend on the processing

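Of 2775 probe sets called in isp-1 against wild type, the count was 716 in the fit of only the groups compared, the one setting that moved it by over 1.5 times, and leaving out 1 array gave 2025 to 2928. The other settings gave 2109 to 2968. For isp-1 against nuo-6 the count of 1 became 2 with no filter, 0 in the fit of only the groups compared and 0 with the replicate block, and 0 to 753 without 1 array, the 753 being without isp-1 replicate 1. The count of the difference between backgrounds, 2362, was 1307 in the fit of only the groups compared and 1371 to 2956 without 1 array. With the replicate number as a block the counts were 2109 against wild type, 6589 in the ced-4 background and 2542 for the difference between backgrounds. Same-numbered isp-1 and wild type arrays correlated in their deviations at 0.0292, 0.206 and -0.133, so the numbers were not taken as pairs. Of 238 named genes, 94 lost the call in the fit of only the groups compared, 11 after loess and 24 with the block, and none of these changed sign. Leaving out arrays turned the sign of 20 named genes, none of them called against wild type. Their differences ranged over -0.21 to 0.10 for ced-4, -0.18 to 0.23 for hsp-60, -1.30 to 0.59 for asp-14, -0.28 to 0.12 for maph-1.2, -1.39 to 0.047 for argk-1, -0.18 to 1.74 for far-3 and -0.024 to 1.92 for catp-3. They also ranged over -0.16 to 0.15 for clec-190, -2.84 to 0.29 for pud-4, -2.60 to 0.29 for pud-3, -0.23 to 1.16 for dod-24, -0.19 to 0.91 for exh-1, -0.020 to 0.10 for isp-1 and -0.46 to 1.82 for dpy-5, and over -0.65 to 1.05 for col-48, -0.30 to 1.55 for col-49, -0.56 to 1.05 for col-104, -1.19 to 1.24 for col-97, -0.071 to 0.85 for cht-1 and -0.10 to 0.64 for sod-4. The cause was not tested.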

Other observations

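A few further families had calls that the comparisons above did not describe, to be read against 13% higher and 10.3% lower over all genes. Of 17 mitochondrial carriers 5 rose and 1 fell (29.4% and 5.88%), and 1 rose and 1 fell without isp-1 replicate 1. In the fit of only the groups compared none of the carriers rose and 1 fell. ant-1.4, of the adenine nucleotide translocases, fell by 1.87, with all isp-1 arrays below all wild type arrays, and slc-25A10 rose by 0.77. Of 12 saposin-like genes, whose products bind membranes, 4 rose and 1 fell (33.3% and 8.33%), and 2 rose without isp-1 replicate 2. In the fit of only the groups compared 1 saposin-like gene rose and none fell, and spp-15 was not called. spp-23 was at 10.91, 10.77 and 10.19 in isp-1, against 9.55, 9.72, 9.23 and 9.81 in wild type, spp-15 rose by 0.89 and spp-4 fell by 0.78, the last not past the threshold without isp-1 replicate 1 (adjusted p = 0.189).

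Of 29 fatty acid binding and lipase genes 6 rose and 1 fell (20.7% and 3.45%), and 3 rose without isp-1 replicate 2 or 3. In the fit of only the groups compared none of them rose and 1 fell. The one that fell was lbp-7, a lipid binding protein, at 8.09, 7.90 and 7.60 in isp-1, against 9.15, 8.89, 10.01 and 8.83 in wild type, and the lysosomal lipase gene lipl-5 rose by 1.00. Of 24 hedgehog-related genes 3 rose and 1 fell in isp-1 against wild type. Among them grd-5 was higher by 1.10 and ptc-3, a patched homolog, by 0.77. In the fit of only the groups compared 2 of the list rose and 1 fell. In isp-1 ced-4 against ced-4, 1 was higher and 21 were lower.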
